A study of Mus musculus with 40 samples.

Results

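Endothelial cells line every vessel of the liver, and they come in kinds that can be told apart by the genes they use. Here 10 of their marker genes were followed in whole liver RNA of mice that lack Nampt in hepatocytes. The 10 genes were taken by name from the 55487 genes of the count table. Stab1, Stab2, Lyve1, Clec4g, and Oit3 were listed as sinusoidal, and Pecam1, Vwf, Cd34, Plvap, and Kdr as vascular or capillary. Kdr did not keep to its list. Within groups of libraries, its correlation was 0.74 with further sinusoidal genes and -0.47 with further vascular or capillary genes. All 10 passed the filter on low counts and were among the 20297 genes tested.

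The sinusoid is the capillary bed of the liver. Its endothelium has open pores and almost no basement membrane, and it clears waste molecules from the blood with scavenger receptors and lectins. Endothelium of larger vessels and of most other capillaries is continuous, holds von Willebrand factor, and carries CD34 on its surface. In chronic liver injury, sinusoids can lose their pores and take on features of ordinary capillaries, which is known as capillarization. NAMPT makes the NAD+ precursor nicotinamide mononucleotide from nicotinamide.

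All mice were female, of C57BL/6JBomTac background, 9 weeks old at the start, and fed the purified control diet (PD). Hepatocyte-specific Nampt knockout (HNKO) mice were Nampt fl/fl with Alb-Cre+/-, in which the Albumin promoter drives Cre in hepatocytes, so that endothelial cells keep the gene by design. WT mice were floxed littermates. There were 5 WT and 5 HNKO libraries after 3 days of PD, 4 and 5 after 6 days, 5 and 6 after 12 days, and 5 and 3 after 21 days, which makes 38 libraries with total counts from 16151037 to 64181492. In the labels these numbers stand as ages; in the methods of the study they are days on PD, as used here. HNKO libraries 17 and 18 of day 21 are described as having failed quality control and were left out. The log2 fold change of Nampt, HNKO over WT, was -0.93, -0.90, -0.82, and -0.69 at days 3, 6, 12, and 21, with edgeR adjusted p-values of 0.0193, 0.0128, 0.0208, and 0.161, and at days 3, 12, and 21 every HNKO library was below every WT library. At day 6, 4 of 5 HNKO libraries were. HNKO library 7, at 6.36 on the log2 CPM scale described below, stood above WT libraries 27 and 28, at 6.00 and 5.99. In whole liver RNA, fewer endothelial cells and less RNA per cell cannot be told apart.

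Of the genes on which the results turn, Cd34 (GRCm38 chr1:194938819-194961279, forward strand) rose and Kdr (chr5:75932827-75978458, reverse strand) fell in HNKO livers relative to the bulk of genes. For each, 250 bases that end just before the start RefSeq gives are shown because these 2 genes, both on the vascular or capillary list, moved in opposite directions. The sequences are RefSeq's for GRCm38.p6, read 5′ to 3′ on the strand of the gene, with matches to the searched words in capitals. By the GENCODE coordinates above, the last 2 bases shown for Cd34 and the last 3 for Kdr lie inside the gene.
Cd34, chr1:194938571-194938820: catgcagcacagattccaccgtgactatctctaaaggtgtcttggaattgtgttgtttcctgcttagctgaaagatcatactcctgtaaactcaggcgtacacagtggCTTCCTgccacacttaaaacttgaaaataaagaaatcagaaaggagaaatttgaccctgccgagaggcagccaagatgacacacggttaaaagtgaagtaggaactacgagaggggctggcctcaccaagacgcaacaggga
Kdr, chr5:75978456-75978705: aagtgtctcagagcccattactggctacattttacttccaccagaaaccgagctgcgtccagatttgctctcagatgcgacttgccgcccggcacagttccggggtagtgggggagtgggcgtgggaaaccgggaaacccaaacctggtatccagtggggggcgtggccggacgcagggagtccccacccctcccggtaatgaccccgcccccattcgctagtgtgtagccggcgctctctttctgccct

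Both strands were searched for 4 words. The ETS type words were CGGAAG, which was found in 13.6% of 32851 promoter windows of the same length, and AGGAAG, which was found in 29.5% of them. The other words were the GATA type word AGATAA, found in 3281 windows, and the TATA type word TATAAA, found in 12.4%. The Cd34 window held 1 match to AGGAAG, on the reverse strand, and the Kdr window held no match to any of the 4 words. The G and C content was 46.4% before Cd34 and 61.6% before Kdr, against a median of 52.4% over all windows. Windows were also at hand for Stab1, with 1 CGGAAG and 1 AGGAAG, Stab2, with 1 AGGAAG, and Clec4g, with 3 AGGAAG and 1 TATAAA. These matches describe the letters only.

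The 10 genes were expressed at very different levels. In TPM, a share of all transcripts corrected for exon length and computed here from the counts, Stab2, a scavenger receptor for hyaluronan, stood first in the 19 WT libraries with 63.3 ± 5.23 TPM (SD, n = 19). Clec4g, a C-type lectin of sinusoidal cells, had 62.3 ± 7.41 TPM, and Stab2 was above it in 10 of 19 libraries, so that these levels did not differ beyond their spread. Plvap, which forms the diaphragms of fenestrae and caveolae, followed with 47.8 ± 4.63 TPM and was above Oit3 in 16 of 19 libraries. Oit3, a secreted zona pellucida domain protein, had 43.8 ± 4.85 TPM, Kdr, the VEGF receptor 2, had 39.1 ± 3.49 TPM, and Stab1, a scavenger receptor related to Stab2, had 32.6 ± 4.31 TPM. The order of these neighbours held in 15 and 17 of 19 libraries.

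Lower in the order came Pecam1, the junctional adhesion protein CD31, with 13.6 ± 1.47 TPM, and Lyve1, a hyaluronan receptor of sinusoidal and lymphatic endothelium, with 11.4 ± 2.45 TPM. Vwf, the platelet-binding protein stored in endothelial granules, had 2.47 ± 0.586 TPM, and Cd34, a surface sialomucin, had 0.786 ± 0.470 TPM. The sinusoidal genes were thus spread from the first to the eighth place of the order, and Vwf and Cd34 closed it. Counts behind these levels were large for most genes, with a median of 5805.5 counts per library for Stab2 and 3526 for Kdr, but only 86.5 for Cd34, which ranged from 28 to 381 counts.

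**Figure D1:**
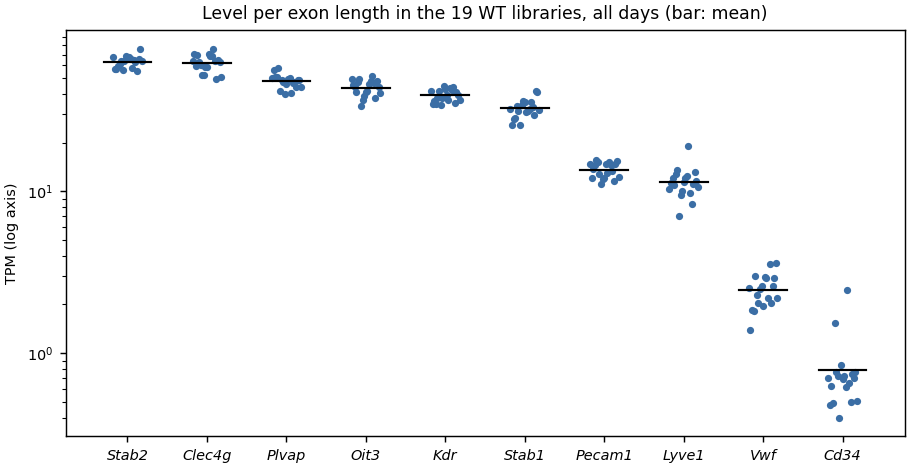
Level of the 10 endothelial genes in the 19 WT libraries of all days, in TPM on a log axis, with 1 point per library and a bar at the mean. Stab2 and Clec4g lie highest and overlap, at means of 63.3 and 62.3 TPM, and Cd34 lies lowest at 0.786 TPM, with 1 library at 2.46 TPM.

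The quasi-likelihood test of edgeR set HNKO against WT livers day by day, and a gene was called at a Benjamini-Hochberg adjusted p under 0.05 over all tested genes of that day. Values per library are log2 CPM, the log2 of the count relative to the library size after TMM scaling. None of the 10 genes was called at day 3, where 4.66% of all tested genes were called. At day 6, 3 of 10 were called, Cd34 higher and Oit3 and Kdr lower, against 12.8% of all genes. At day 12, 3 of 10 were called, Vwf higher and Oit3 and Kdr lower, against 7.82%. At day 21, Cd34 was called higher, against 3.12%. In all, 7 of 40 comparisons were called, in 4 genes. Of the 5 sinusoidal genes Oit3 alone was called at any day, joined by Lyve1 at day 6 when total counts replaced TMM scaling, and of the 5 vascular or capillary genes Cd34, Vwf, and Kdr were.

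The scale matters for these directions. TMM sets the median log2 fold change of all tested genes between -0.014 and 0.013 at the 4 days. With total counts in place of TMM, a scale chosen after seeing the data, that median was 0.18 at day 3, 0.20 at day 6, and 0.19 at days 12 and 21, and the calls over all genes went from 1709 higher and 887 lower to 2948 higher and 223 lower at day 6. At days 3, 12, and 21, they went from 598 and 347 to 1657 and 135, from 925 and 663 to 2124 and 150, and from 448 and 186 to 1156 and 56. All directions given here are relative to the bulk of genes, and values on total counts are given where a call of one of the 10 genes or of a named gene that fell changes.

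**Figure D2:**
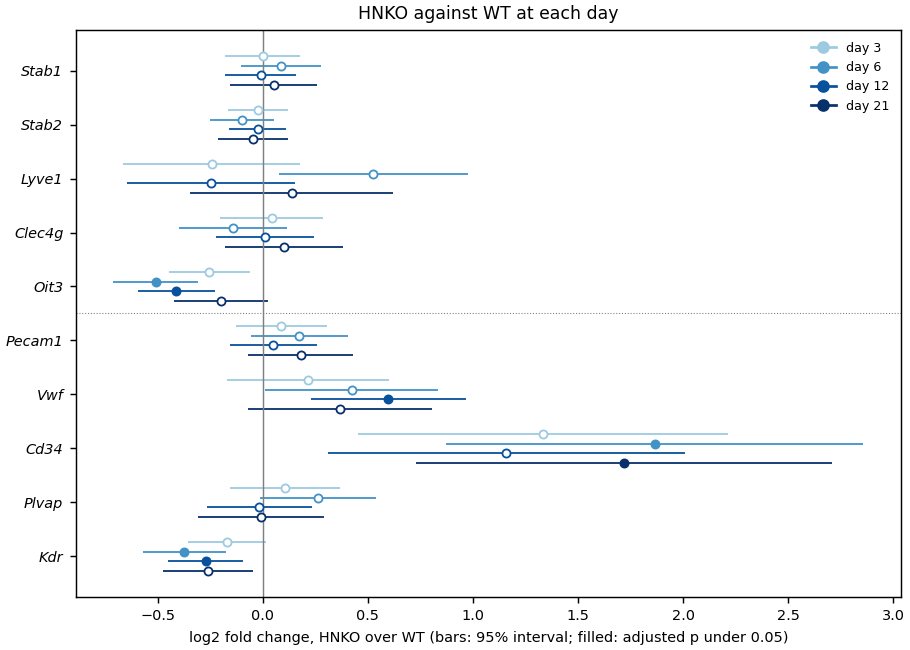
Log2 fold change, HNKO over WT, of the 10 genes at days 3, 6, 12, and 21, with 95% intervals; filled points have an adjusted p under 0.05. Cd34 lies between 1.16 and 1.87 and Oit3 and Kdr lie below 0 at all 4 days on the TMM scale (Oit3 at day 21 was at 0.0040 on total counts), whereas all intervals of Stab1 and Stab2 include 0.

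Cd34 had the largest fold changes of the 10 genes. At day 6, its log2 CPM was 1.11, 0.73, 1.02, and 0.59 in WT and 1.80, 3.71, 3.09, 1.83, and 1.89 in HNKO, so that all 5 HNKO libraries were above all 4 WT libraries. This was a log2 fold change of 1.87 (standard error 0.488; edgeR adjusted p = 0.0101), or 3.64-fold. At day 21, WT libraries had 0.23, 1.34, 0.98, 1.01, and 0.75 and HNKO libraries 3.31, 1.87, and 2.15, again without overlap, with a log2 fold change of 1.72 (standard error 0.488; adjusted p = 0.0438), or 3.29-fold. Groups without overlap and with HNKO higher were found for 8.08% of all tested genes at day 6 and for 7.25% at day 21.

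At day 3, Cd34 log2 CPM was 1.08, 0.69, 1.11, 0.93, and 2.82 in WT and 3.51, 2.35, 2.28, 1.66, and 3.65 in HNKO. WT library 26, at 2.82, stood above 3 HNKO libraries, and the log2 fold change of 1.33 (standard error 0.433) had an adjusted p of 0.0646. Without that library the log2 fold change was 1.96 and the adjusted p was 0.0126, and it was 0.0445 and 0.0270 without HNKO libraries 4 and 22, with log2 fold changes of 1.45 and 1.52. Over all genes, 873, 1473, and 1668 were called at day 3 without WT library 26 and HNKO libraries 4 and 22, against 945 with all of them. At day 12, WT libraries had 2.18, 1.33, 1.27, 1.2, and 1.10, and the 6 HNKO libraries had a lowest, median, and highest value of 1.41, 2.46, and 3.36. Of these, 5 were above every WT library, and the log2 fold change of 1.16 (standard error 0.418) had an adjusted p of 0.0776, or 0.0458 without HNKO library 36, with a log2 fold change of 1.32.

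The spread of Cd34 within HNKO groups was wide at every day. At day 6 the HNKO libraries had 2.46 ± 0.884 log2 CPM (SD, n = 5), against 0.861 ± 0.241 in WT (n = 4). The call at day 6 was kept when any 1 of the 9 libraries was left out, with log2 fold changes from 1.44 to 2.04. The call at day 21 was lost without HNKO library 37, where the log2 fold change was 1.16 and the adjusted p 0.597, and without WT libraries 19, 20, 21, 39, and 41, where log2 fold changes of 1.59, 1.85, 1.74, 1.75, and 1.69 had adjusted p-values of 0.104, 0.0576, 0.0776, 0.0609, and 0.0842. Calls over all genes fell with it, from 634 of 20297 genes to 13 of 20737 without HNKO library 37 and to between 277 and 599 without 1 of these WT libraries. On total counts, Cd34 was called at all 4 days, with log2 fold changes of 1.55, 2.10, 1.34, and 1.97 and adjusted p-values of 0.0355, 0.00573, 0.0474, and 0.0246, and DESeq2 called it at days 3 and 12 too, with adjusted p-values of 0.0305 and 0.0423. Of its exonic bases, 148 overlap Gm16897 on the other strand, a gene with a median of 14 counts, and since the strand setting of the counting is not stated, reads of the 2 genes cannot be told apart there. In 2.03% of its stretches of 51 bases, Cd34 shares sequence with other genes, the highest share among the 10.

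Vwf (GRCm38 chr6:125546774-125686679, forward strand) rose at day 12. Its log2 CPM was 4.26, 4.01, 3.87, 4.12, and 4.24 in WT, and the 6 HNKO libraries had a lowest, median, and highest value of 4.01, 4.74, and 5.08. Of them, 5 were above every WT library, and HNKO library 11, at 4.01, lay among the WT libraries. The log2 fold change was 0.60 (standard error 0.181; edgeR adjusted p = 0.0380), or 1.51-fold. At days 3, 6, and 21 it was 0.22, 0.42, and 0.37, with adjusted p-values of 0.556, 0.174, and 0.385.

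The call of Vwf at day 12 was close to the threshold. It was lost without HNKO libraries 13, 32, and 35, where adjusted p-values were 0.102, 0.0615, and 0.0692, and without WT libraries 15, 16, 33, and 34, where they were 0.0851, 0.0836, 0.0680, and 0.0505, with log2 fold changes from 0.51 to 0.63. Calls over all genes in these fits numbered 852 to 1750, against 1588. With all 40 libraries, which brings in the left-out HNKO libraries 17 and 18, Vwf was called at day 21 instead, with a log2 fold change of 0.98 (adjusted p = 0.0170), and the adjusted p at day 12 was 0.175. In that fit, calls over all 19981 tested genes numbered 1350 at day 21 and 624 at day 12. At day 6, WT libraries had 3.76, 3.71, 4.53, and 3.71 and HNKO libraries 4.13, 4.80, 4.44, 4.25, and 4.23 log2 CPM. WT library 27 stood above 4 of the 5 HNKO libraries, and without it the log2 fold change was 0.67 and the adjusted p 0.0341.

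Oit3 (GRCm38 chr10:59422958-59441778, reverse strand) was the 1 sinusoidal gene of the 5 that fell. At day 6, its log2 CPM was 5.81, 5.68, 5.87, and 5.69 in WT and 5.45, 5.13, 5.27, 5.13, and 5.27 in HNKO, without overlap. The log2 fold change was -0.51 (standard error 0.0996; edgeR adjusted p = 0.000934), a level 0.703-fold that of WT. At day 12, WT libraries had 5.71, 5.91, 5.38, 5.45, and 5.76, and the 6 HNKO libraries had a lowest, median, and highest value of 5.06, 5.25, and 5.35, again all below WT. There the log2 fold change was -0.41 (standard error 0.0899; adjusted p = 0.00630).

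Both calls of Oit3 were kept when any 1 library of the day was left out, with adjusted p-values up to 0.00552 at day 6 and 0.0350 at day 12. Groups without overlap and with HNKO lower were found for 4.68% of all tested genes at day 6 and 2.14% at day 12. At day 3, WT libraries had 5.78, 5.82, 5.52, 5.72, and 5.70 and HNKO libraries 5.57, 5.47, 5.66, 5.35, and 5.20 log2 CPM, with 3 of 5 HNKO libraries below all WT libraries. The log2 fold change was -0.25 (adjusted p = 0.107), and without HNKO library 4 it was -0.31 (adjusted p = 0.0473). At day 21, WT libraries had 5.28, 5.42, 5.44, 5.42, and 5.63 and HNKO libraries 5.04, 5.39, and 5.28, with a log2 fold change of -0.20 (adjusted p = 0.348). On total counts, the log2 fold change was -0.30 at day 6 (adjusted p = 0.0257), -0.22 at day 12 (adjusted p = 0.0886), and 0.0040 at day 21.

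Kdr fell at days 6 and 12 as well. Its log2 CPM at day 6 was 7.21, 7.12, 7.28, and 7.29 in WT and 7.05, 6.90, 6.67, 6.73, and 6.90 in HNKO, without overlap. The log2 fold change was -0.37 (standard error 0.0968; edgeR adjusted p = 0.00934), a level 0.772-fold that of WT. Without HNKO library 29, the lowest, it was -0.31 and the adjusted p was 0.0605, in a fit that called 1126 genes in place of 2596. At day 12, WT libraries had 7.07, 7.35, 7.08, 7.04, and 7.22, and the 6 HNKO libraries had a lowest, median, and highest value of 6.75, 6.86, and 7.03, all below WT, with a log2 fold change of -0.27 (standard error 0.0874; adjusted p = 0.0490).

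The day 12 call of Kdr sat at the threshold and was lost without any of HNKO libraries 11, 12, 13, and 35 and WT libraries 14, 15, 16, 33, and 34. Adjusted p-values were then 0.0841, 0.0913, 0.109, 0.0961, 0.0510, 0.179, 0.0660, 0.0612, and 0.105, in that order, and log2 fold changes ranged from -0.30 to -0.22. These fits called 852 to 1433 genes in all. At day 3, WT libraries had 7.23, 7.12, 7.14, 7.07, and 7.24 and HNKO libraries 6.97, 6.92, 7.16, 7.14, and 6.73 log2 CPM, and 3 of 5 HNKO libraries were below all WT libraries. At day 21, they were 7.0, 7.32, 7.19, 6.97, and 7.19 in WT and 6.65, 7.11, and 6.83 in HNKO. The log2 fold changes were -0.17 at day 3 and -0.26 at day 21, with adjusted p-values of 0.282 and 0.174. On total counts Kdr was not called, with log2 fold changes of -0.013, -0.18, -0.076, and -0.063 at days 3, 6, 12, and 21 and adjusted p-values of 0.930, 0.130, 0.505, and 0.711.

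**Figure D3:**
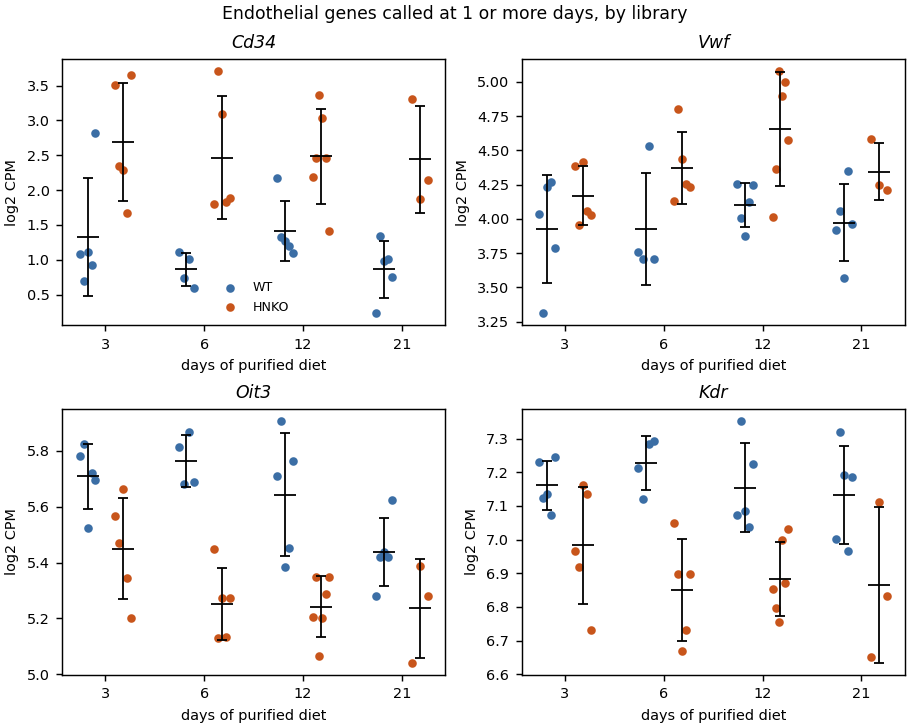
Log2 CPM of Cd34, Vwf, Oit3, and Kdr in each library at days 3, 6, 12, and 21 of PD, with WT in blue and HNKO in orange; bars are the mean and SD of each group. The HNKO points of Oit3 and Kdr lie below all WT points at days 6 and 12, those of Cd34 lie above all WT points at days 6 and 21, and WT library 26 lies at 2.82 for Cd34 at day 3.

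Stab1, Stab2, Clec4g, and Lyve1, the other sinusoidal genes of the 10, did not pass the test at any day. Stab2 varied least. Its HNKO and WT means were 7.79 and 7.82 log2 CPM at day 3, 7.73 and 7.83 at day 6, 7.76 and 7.78 at day 12, and 7.79 and 7.84 at day 21, and all libraries lay between 7.54 and 7.94. The log2 fold changes ranged from -0.10 to -0.024, and all 95% intervals lay between -0.25 and 0.12. For Stab1 the log2 fold changes ranged from -0.010 to 0.087, and the intervals lay between -0.18 and 0.28.

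Clec4g had log2 fold changes from -0.14 to 0.099, with intervals between -0.40 and 0.38. Its HNKO libraries were more spread than its WT libraries at day 6, with 5.96 ± 0.320 (SD, n = 5) against 6.13 ± 0.142 log2 CPM (n = 4). Among the vascular or capillary genes, Pecam1 had log2 fold changes from 0.050 to 0.18 and Plvap from -0.016 to 0.26, with intervals from -0.16 to 0.43 and from -0.31 to 0.54. Adjusted p-values of Stab1, Stab2, Clec4g, Pecam1, and Plvap were between 0.215 and 0.999 in all 20 comparisons. On total counts, Pecam1 and Plvap were called higher at day 6, with log2 fold changes of 0.39 and 0.48 and adjusted p-values of 0.0271 and 0.0124, and with all 40 libraries Pecam1 was called higher at day 21, with a log2 fold change of 0.38 (adjusted p = 0.0460).

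Lyve1 was the most variable of the sinusoidal genes. At day 6, its log2 CPM was 4.01, 3.84, 3.54, and 3.29 in WT and 3.87, 4.37, 4.5, 4.51, and 3.62 in HNKO, with 3 of 5 HNKO libraries above all WT libraries. The log2 fold change was 0.53 (standard error 0.221; edgeR adjusted p = 0.116), and without HNKO library 31, the lowest, it was 0.64 (adjusted p = 0.0464). At days 3, 12, and 21 it was -0.24, -0.25, and 0.14, with adjusted p-values of 0.537, 0.470, and 0.828. On total counts, Lyve1 was called higher at day 6, with a log2 fold change of 0.77 (adjusted p = 0.0351).

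**Figure D4:**
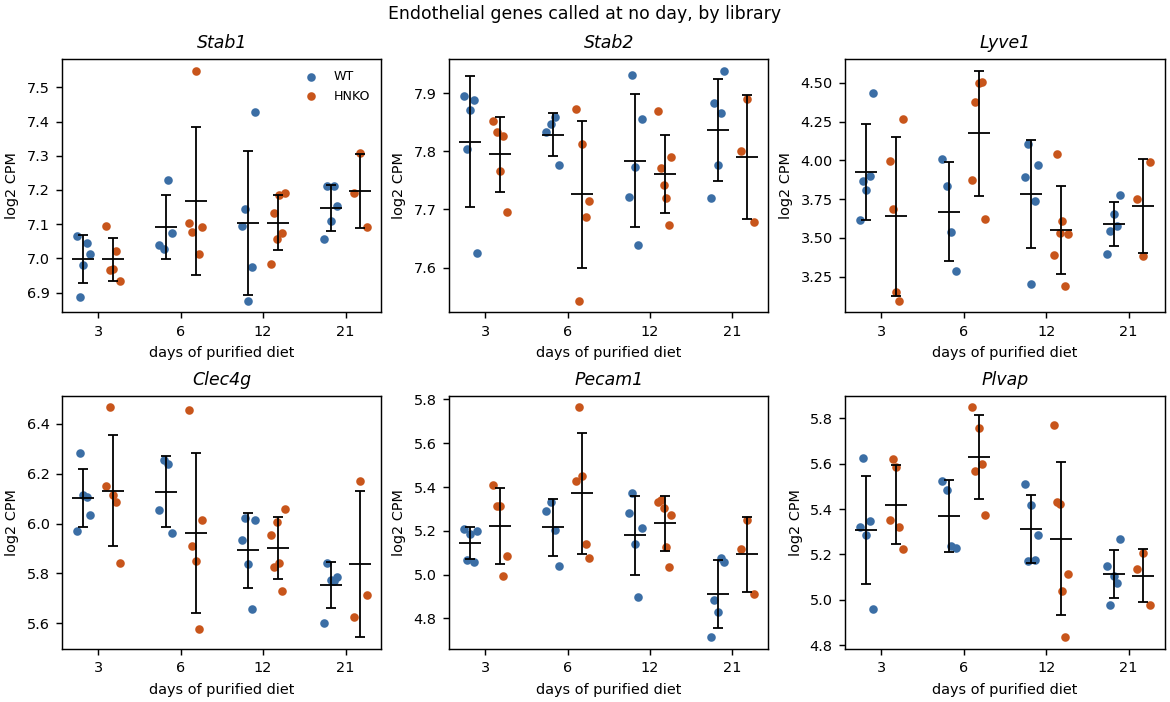
Log2 CPM of Stab1, Stab2, Lyve1, Clec4g, Pecam1, and Plvap in each library at days 3, 6, 12, and 21 of PD, with WT in blue and HNKO in orange; bars are the mean and SD of each group. HNKO and WT points overlap in every panel at every day, and Stab1 of HNKO library 29 at day 6 lies apart at 7.55.

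Whether the genotype effect differed between days was tested as an interaction, which called none (0%) of the 20297 genes in edgeR, where 966 (4.76%) had an unadjusted p under 0.05, and 16 genes in DESeq2. None of the 10 genes was among the calls of either tool, and the edgeR adjusted p was 0.9998 for each. The lowest unadjusted p, 0.0456, was that of Lyve1, whose log2 fold change was 0.77 higher at day 6 than at day 3. The calls of Cd34, Vwf, Oit3, and Kdr at some days and not at others are therefore no sign of a difference between days. No member changed over the days within WT or within HNKO at an adjusted p under 0.05, where 5.84% and 7.9% of all genes did. The lowest adjusted p-values were 0.110 for Oit3 in WT and 0.0653 for Plvap in HNKO.

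Genes were also set against other endothelial genes, which does not depend on the scaling of libraries. In each library, the count of a gene was divided by the summed counts of 10 pan-endothelial genes (Cdh5, Tie1, Egfl7, Esam, Erg, Ecscr, Robo4, Emcn, Eng, and Sox18), with no test. The summed level of these genes lay between 230 and 283 CPM over the WT libraries of all days and between 228 and 297 CPM over the HNKO libraries. The log2 ratio of Oit3 was lower in HNKO by -0.27, -0.53, -0.39, and -0.16 at days 3, 6, 12, and 21, without overlap of the groups at days 3, 6, and 12, where 1.14%, 2.61%, and 1.25% of all tested genes were lower without overlap on this ratio. That of Kdr differed by -0.19, -0.40, -0.26, and -0.22, without overlap at day 6. That of Cd34 was higher by 1.37, 1.61, 1.10, and 1.66, without overlap at days 6 and 21, where 8.43% and 8.88% of all tested genes were higher without overlap. That of Vwf was higher by 0.23, 0.43, 0.57, and 0.42, with overlap at every day.

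The library numbers pass through the 4 days from 1 to 21 and again from 22 to 41. The labels name no batch, and what these 2 stretches of numbers stand for is not stated, but 7 comparisons of HNKO and WT can be made within a stretch and a day. Cd34 was higher in HNKO in 7 of 7, with differences of means from 1.04 to 1.83 log2 CPM. Oit3 was lower in 7 of 7, from -0.55 to -0.24, and Kdr in 7 of 7, from -0.52 to -0.16. Vwf was higher in 6 of 7, from -0.052 to 0.73. Stab2 was lower in 7 of 7, but only by -0.13 to -0.015. These comparisons split the libraries used above, so they add no independent support. The share of all tested genes with 1 direction in 7 of 7 was not computed. The 3 HNKO libraries of day 21 are all numbered above 21.

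Further lists of endothelial genes, chosen with earlier results of these data known, place the 10 genes among others of their kind. The counts called in each list stand against 2.95%, 8.42%, 4.56%, and 2.21% of all tested genes called higher at days 3, 6, 12, and 21 and 1.71%, 4.37%, 3.27%, and 0.916% called lower. Of 10 pan-endothelial genes, Ecscr, an endothelial surface protein, rose at days 3 and 6, with log2 fold changes of 0.65 and 0.80 and edgeR adjusted p-values of 0.0203 and 0.00292, and no other gene was called at any day. Its day 3 call was lost without HNKO libraries 2, 3, and 23 and WT library 25, where adjusted p-values were 0.0632, 0.0633, 0.0531, and 0.0565, and on total counts it was called at day 12 too. Of 18 further sinusoidal genes, 1 fell at day 3, 2 rose and 2 fell at day 6, and 1 rose and 2 fell at day 12. On total counts, 1, 4, 2, and 1 were called higher at days 3, 6, 12, and 21 and 1, 1, 1, and 0 lower, and with 1 library left out up to 4 were called lower at day 12. Ehd3, a membrane trafficking protein, fell at days 6 and 12, by 0.65 and 0.49 on the log2 scale (adjusted p = 0.00203 and 0.0147). Cd209b, a C-type lectin, fell at days 3 and 12, by 2.02 and 1.52 (adjusted p = 0.0244 and 0.0437), but its counts were near the floor, with a median of 8 per library. Bmp6, the signal by which sinusoidal cells set hepcidin, fell by 0.59 at day 6 (adjusted p = 0.0437). On total counts, Ehd3 was lower at both days, with log2 fold changes of -0.46 and -0.30 (adjusted p = 0.00369 and 0.0418), whereas Bmp6 at day 6 and Cd209b at day 12 were not called (adjusted p = 0.219 and 0.0564). When 1 library was left out, 3 of the 4 calls of day 6 were kept in every fit, and none of those of days 3 and 12 was. The median log2 fold change of the 18 genes was -0.11, -0.18, -0.12, and -0.19 at days 3, 6, 12, and 21. On total counts these medians turned to 0.063, 0.027, 0.079, and 0.015, where the median of all tested genes was 0.18, 0.20, 0.19, and 0.19.

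Whole liver RNA does not show which cells the transcripts of a list came from. Of the genes on the further sinusoidal list that rose, Lgmn, a lysosomal protease that macrophages also use, had log2 fold changes of 0.72 at day 6 and 0.47 at day 12 (edgeR adjusted p = 0.00259 and 0.0367). Il6st, the shared receptor chain of interleukin-6 type cytokines, had 0.46 at day 6 (adjusted p = 0.00177). The scavenger receptor genes Mrc1 and Fcgr2b were not called at any day, with log2 fold changes from -0.21 to -0.11 and from -0.16 to 0.057. On total counts, Fcgr2b was called higher at day 6, with a log2 fold change of 0.26 (adjusted p = 0.0371).

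Of 24 further vascular or capillary genes, 3, 12, 5, and 4 rose at days 3, 6, 12, and 21, and none fell. The median log2 fold change of the 24 genes was 0.41, 0.96, 0.45, and 0.54. Genes that receive leukocytes and control clotting were among them: Icam1 rose by 1.52 and 0.92 at days 6 and 12 (edgeR adjusted p = 0.000105 and 0.00889), P-selectin (Selp) by 1.53 and 0.71 (adjusted p = 0.000156 and 0.0384), and thrombomodulin (Thbd) by 1.0 and 0.56 (adjusted p = 0.000520 and 0.0306). Of the 12 calls at day 6, 9 were kept when any 1 library was left out, whereas of those at days 3, 12, and 21 only 1, at day 12, was kept. On total counts, 4, 14, 8, and 7 of the 24 genes were called higher. Mcam, a surface adhesion protein of vessel and mural cells, rose at all 4 days, with log2 fold changes of 0.58, 0.85, 0.49, and 0.65. On the other side, Cldn5, a tight junction gene of continuous endothelium, had log2 fold changes from -0.10 to 0.037, and Efnb2, an arterial gene, from -0.44 to 0.043, and neither was called.

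Of 9 genes of central vein endothelium, which include Selp and Thbd, 1, 3, 5, and 1 rose and none fell, of which 0, 3, 1, and 0 were kept when any 1 library was left out. On total counts, 3, 4, 5, and 4 of the 9 genes were called higher. Dkk3, a secreted protein of the Dickkopf family, rose at all 4 days, with log2 fold changes of 0.95, 1.23, 1.03, and 1.14. The Wnt signals that this endothelium sends to hepatocytes gave no common direction: Wnt2 had -0.40, -0.55, -0.086, and -0.22 and was not called, Rspo3 had values from -0.34 to 0.12 and was not called, and Wnt9b rose at day 12, by 0.90 (edgeR adjusted p = 0.0248). Of 15 VEGF and angiopoietin ligands and receptors, Kdr among them, 3 rose and 1 fell at day 6, 2 fell at day 12, and none was called at days 3 and 21. Those that rose at day 6 were the ligands Vegfd, Angpt2, and Pgf, with log2 fold changes of 1.24, 0.70, and 2.12 (adjusted p = 0.00493, 0.0167, and 0.0438), and Pgf had a median of only 3.5 counts per library. Beside Kdr, the coreceptor Nrp2 fell by 0.33 at day 12 (adjusted p = 0.0278). With any 1 library left out, only Vegfd of these was kept in every fit, and on total counts Nrp2 was not called, with a log2 fold change of -0.14 (adjusted p = 0.462). On that scale, 1, 3, 0, and 1 of the 15 genes were called higher at days 3, 6, 12, and 21, and none was called lower. Vegfa, the main ligand of Kdr, had log2 fold changes of -0.27, -0.29, -0.31, and -0.42 and was not called. The other receptors Flt1, Flt4, and Tek had values from -0.29 to 0.058 and were not called.

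**Figure D5:**
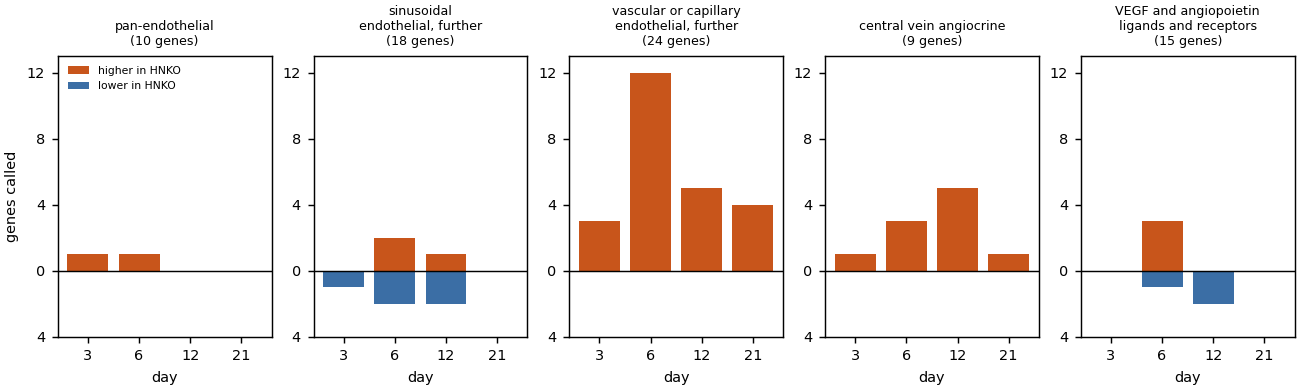
Number of genes called at an adjusted p under 0.05 at days 3, 6, 12, and 21 in 5 lists of endothelial genes, with genes higher in HNKO drawn upward in orange and lower ones downward in blue. The list of 24 further vascular or capillary genes had 3, 12, 5, and 4 higher genes, while the list of 10 pan-endothelial genes had 1, 1, 0, and 0.

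Markers of other cells moved in the same livers, against 2.95%, 8.42%, 4.56%, and 2.21% of all genes called higher and 1.71%, 4.37%, 3.27%, and 0.916% lower at the 4 days. Of 9 stellate cell and myofibroblast genes, 3, 4, 2, and 3 rose and 0, 0, 1, and 0 fell at days 3, 6, 12, and 21, and their summed level at day 6 was 507 to 556 CPM in WT and 666 to 1287 CPM in HNKO. Of 6 cholangiocyte genes, 5, 5, 4, and 3 rose, with sums at day 6 of 34.3 to 46.3 CPM in WT and 165 to 754 CPM in HNKO. These sums mostly reflect Spp1, which had 31227 counts in HNKO library 29 against 408 of Sox9, and 856 against 50 in WT library 8. Krt19 was the gene of this list not called at day 6 (edgeR adjusted p = 0.0601). Of 11 Kupffer cell and macrophage genes 1, 5, 2, and 2 rose, with sums at day 6 of 629 to 798 CPM and 818 to 1220 CPM. Of 7 leukocyte genes 1, 4, 3, and 0 rose, and of 6 lymphatic endothelial genes 3 were called higher at day 6 and 1 lower at day 12. Those of day 6 were Ccl21a, Mmrn1, and Pdpn. HNKO library 7 alone had 290 counts of Ccl21a and 712 of Mmrn1, against at most 38 and 49 in the other libraries of that day, and without it none of the 3 was called, with log2 fold changes of 0.52, 0.11, and 1.6 (edgeR adjusted p = 0.613, 0.934, and 0.104). The gene of day 12, Reln, was also 1 of the stellate cell list and was not called on total counts (adjusted p = 0.312). Of 3 tested platelet genes of 5, only Pf4 rose, at days 6 and 12. Of 8 hepatocyte genes, Alb and Ttr fell at day 6, though neither was called without HNKO library 29 (adjusted p = 0.0669 and 0.0998). Fgb, the 1 gene of the 8 above 0 at day 6, was at 0.56 (adjusted p = 0.0569) and was called higher on total counts, at 0.75 (adjusted p = 0.000898). Hepatocyte sums at day 6 were 119039 to 131177 CPM in WT and 61280 to 109085 CPM in HNKO. These sums mostly reflect Alb, with 2287453 counts in WT library 8 against 187283 of Cps1. In none of these lists was a gene at 0 counts in all 38 libraries. When any 1 library was left out, 0, 3, 0, and 0 calls of the stellate cell list, 2, 4, 3, and 2 of the cholangiocyte list, 0, 3, 1, and 0 of the macrophage list, and 0, 4, 1, and 0 of the leukocyte list were kept in every fit at days 3, 6, 12, and 21. The macrophage count moved with the setting: on total counts 1, 8, 8, and 2 genes were called higher, and at day 12, with 1 library left out, 1 to 7. On total counts, the stellate cell list had 4, 6, 4, and 5 higher genes, the cholangiocyte list 5, 6, 5, and 5, and the leukocyte list 1, 4, 3, and 2. The part of these cells in the values of the 10 genes was not tested.

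How the 10 genes vary together within groups was described by the Pearson correlation of their deviations from the group means over 38 libraries, which share library and depth. Pairs of sinusoidal genes had a median of 0.31, from -0.22 to 0.56, and pairs of vascular or capillary genes had a median of 0.047, from -0.38 to 0.40. The 25 pairs of 1 sinusoidal and 1 vascular or capillary gene had a median of 0.19, from -0.38 to 0.60, so that the 3 ranges overlapped widely. The highest pair was a mixed one, Oit3 with Kdr, at 0.60, followed by Stab2 with Clec4g, at 0.56. The lowest was Vwf with Plvap, at -0.38.

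Against the mean log2 CPM of the marker lists, Cd34 had 0.79 with the stellate cell and myofibroblast list, 0.79 with the 24 further vascular or capillary genes, 0.48 with the pan-endothelial list, and -0.41 with the 18 further sinusoidal genes. Kdr had 0.74 with the further sinusoidal genes, 0.64 with the hepatocyte list, and -0.57 with the stellate cell and myofibroblast list. With the 24 further vascular or capillary genes, Kdr had -0.47, Plvap -0.12, Vwf 0.26, and Pecam1 0.33. Vwf had 0.093 with the pan-endothelial list. Oit3 had 0.52 and Clec4g 0.66 with the further sinusoidal genes. Pecam1 had 0.72 with the pan-endothelial list, Lyve1 had 0.71 with the leukocyte list, and Vwf had 0.60 with the lymphatic list and 0.48 with the stellate cell and myofibroblast list.

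Of all tested genes outside the 10, those most like Cd34 by this measure over 38 libraries were Plxdc2, Cavin1, and Col6a6, at 0.91, 0.90, and 0.89. For Kdr they were Ptprb, 5830473C10Rik, and Mst1, at 0.80, 0.78, and 0.75, of which Ptprb is the vascular endothelial tyrosine phosphatase. For Oit3 they were Gm49463, Ppp1ca, and Sec61g, at 0.72, 0.72, and 0.71, and for Vwf Dpep1, Acta2, and Megf6, at 0.71, 0.69, and 0.69. The gene most like Pecam1 was Cdh5, VE-cadherin, at 0.75, and that most like Stab1 was Esam, another endothelial junction gene, at 0.70. Those most like Stab2, Lyve1, and Clec4g were Cd300e, Itga4, and Plxnc1, at 0.70, 0.77, and 0.77.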

How the data were processed

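After removal of rRNA from total liver RNA, paired ends of 51 bp were sequenced. The authors aligned reads to GRCm38 with STAR 2.7.2b, counted fragments with both ends aligned using featureCounts 1.6.4 on GENCODE annotation, and deposited raw counts per gene for 40 libraries. The strand setting is not given in the sources used here. Libraries 17 and 18 were left out.

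Genes were filtered (minimum count 10, minimum total count 15, minimum proportion 0.7), then TMM factors were computed and each genotype on each day got 1 mean in a fit of 38 libraries in edgeR 4.0.16 (R 4.3.3, quasi-likelihood test, legacy dispersion). Benjamini-Hochberg adjustment ran over 20297 genes per comparison. Standard errors are those implied by the test statistic. Log2 CPM used a prior count of 2. TPM used exon lengths of GENCODE M21, and promoter windows came from RefSeq. The methods describe mice assigned at random to each day, and the labels do not name the mouse behind a library; libraries were taken as separate mice.

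The members and lists were chosen with earlier results of these data known. All 10 members were named, with up to 3 higher and 3 lower genes of the smallest p per list; Mrc1, Fcgr2b, Cldn5, Efnb2, the Wnt signals, Vegfa, Flt1, Flt4, Tek, and Mcam were named after their values were seen. The genes most like Plvap are not reported here. Alternatives were DESeq2 1.42.0, RLE factors, other filters, all 40 libraries, fits of 2 groups, the stretch of library numbers as a covariate, the edgeR 4 dispersion, leaving out each library in turn, and, added after seeing the data, total counts. In simulated data, 66.7%, 67.7%, 67%, and 60.6% of genes changed by a log2 fold of 1, and 94%, 88%, 98%, and 93% of those changed by 2, were recovered at days 3, 6, 12, and 21. The lowest chi-square per gene over 74 library pairs within groups was 12.3, so no library was a copy of another of its group.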

Additional observations from a re-analysis of the deposited data

Results flagged for a closer look

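Within groups of 4 to 6 libraries, 70 sets of values were checked for 1 library far from the rest, and 4 were found, where chance gives about 1 in 20. Stab1 in HNKO library 29 of day 6 had 7.55 log2 CPM, against 7.10 in the next library. Vwf in WT library 27 of day 6 had 4.53, against 3.76. Cd34 in WT library 26 of day 3 had 2.82, against 1.11, and in WT library 14 of day 12 it had 2.18, against 1.33.

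HNKO libraries 17 and 18 of day 21, left out after quality control, were scaled together with the other 38. Vwf was at 6.11 and 4.78 log2 CPM there, above the highest WT library of day 21 at 4.38. Pecam1 was at 5.70 and 5.41, against 5.10, and Clec4g at 6.01 and 6.10, against 5.84. Cd34 was at 1.43 and 2.27, against 1.34, and Plvap was at 5.35 in library 18, against 5.28, but at 4.64 in library 17, below the lowest WT library at 4.98. Kdr was at 6.79 and 6.83, below the lowest WT library at 6.99, and in library 17 Stab2 was at 7.54 and Stab1 at 6.96, below their lowest WT libraries at 7.72 and 7.05. In library 18, Lyve1 was at 3.05, below 3.39. Oit3, at 5.43 and 5.52, lay within the WT range of 5.28 to 5.64. These libraries had 12287423 and 15935527 counts.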

How the results depend on the processing

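Of the calls among the 10 genes, those of Oit3 and Cd34 at day 6 were kept under each alternative run, with or without each library of the day. On total counts 1 vascular or capillary gene was called at day 3, 2 sinusoidal genes at day 6, where 3 vascular or capillary genes (Pecam1, Cd34, and Plvap) took the place of 2 (Cd34 and Kdr), and 0 sinusoidal genes at day 12. DESeq2 called 1 vascular or capillary gene at day 3. At day 12, where 2 vascular or capillary genes were called, 1 was called with DESeq2 size factors and with at least 10 counts in every library, and 0 with no filter, with all 40 libraries, and in a fit of 2 groups. On total counts the number at day 12 stayed at 2, with Cd34 in the place of Kdr beside Vwf, and DESeq2 called Cd34 at day 12 too. With all 40 libraries, 3 were called at day 21 in place of 1, while calls over all genes went from 634 of 20297 to 1350 of 19981. With 1 library left out, 0 to 1 sinusoidal and 0 to 1 vascular or capillary genes were called at day 3, 1 to 2 and 1 to 3 at day 6, 1 to 1 and 0 to 3 at day 12, and 0 to 0 and 0 to 1 at day 21. Why these calls moved was not tested, beyond the smaller number of libraries in some fits.

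Over 10 genes, 4 days, and 9 alternatives other than leaving out a library, 318 log2 fold changes kept their direction and side of the threshold, 9 passed it, 11 fell below it, and 22 changed sign. When each library was left out in turn, the numbers were 320, 7, 23, and 30. No paired analysis was possible because the labels give each library a number of its own. The log2 fold changes that changed sign, none of them called, are given by alternative. On total counts, they were 0.17 and 0.18 for Stab1 at days 3 and 12, 0.15, 0.11, 0.17, and 0.16 for Stab2 at days 3, 6, 12, and 21, 0.054 for Clec4g at day 6, 0.17 and 0.20 for Plvap at days 12 and 21, and 0.0040 for Oit3 at day 21. With no filter, the value was 0.0044 for Stab1 at day 3. With at least 10 counts in every library, they were 0.018 and 0.016 for Stab1 at days 3 and 12, 0.0013 for Stab2 at day 12, and 0.0086 and 0.016 for Plvap at days 12 and 21. With the stretch of library numbers (1 to 21 or 22 to 41) as a covariate, they were 0.017 for Stab1 at day 3 and 0.12 for Plvap at day 21. In fits of 2 groups, they were 0.0050 and 0.0016 for Stab1 at days 3 and 12, and 0.012 for Plvap at day 21. With all 40 libraries, the value was -0.0092 for Stab1 at day 21. With 1 library left out, they ranged from -0.027 to 0.020 for Stab1 at day 3, from -0.069 to 0.0042 for Stab2 at day 3, from -0.051 to 0.11 for Clec4g at day 3, from -0.00035 to 0.15 for Stab1 at day 6, from -0.061 to 0.081 for Stab1 at day 12, from -0.059 to 0.017 for Stab2 at day 12, from -0.045 to 0.063 for Clec4g at day 12, from -0.015 to 0.11 for Pecam1 at day 12, from -0.13 to 0.083 for Plvap at day 12, from -0.075 to 0.025 for Stab2 at day 21, from -0.061 to 0.22 for Clec4g at day 21, and from -0.041 to 0.072 for Plvap at day 21.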
